A study of Homo sapiens with 9 samples.

Results

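The 6 libraries described here come from a series of 9 HCT116 RNA-seq libraries and fall into a set of 4 with a high level of FOS and a pair with a low level of FOS. They were chosen by measured expression: high FOS and EGR1 picked the 4, and low FOS with high MKI67 picked the pair. The FOS-high set holds shCTRL DMSO replicates 1 and 2 and shCTRL VXN replicates 1 and 2, and the FOS-low pair holds shSLC6A3 DMSO replicates 2 and 3. The remaining 3 libraries, replicate 3 of both shCTRL groups and replicate 1 of shSLC6A3 DMSO, lie in neither set. Of 60651 gene rows, 14574 had a mean of at least 1 count per 1000000 (CPM) over the 6 libraries, and these are the genes compared. Just outside that floor lay PLAC8L1 (mean 0.998 CPM) and LRG1 (0.999 CPM), and just inside it FAM151B (1.00004 CPM) and KIAA1614-AS1 (1.0003 CPM).

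HCT116 is a line established from a human colorectal carcinoma. In shCTRL DMSO the cells had a control hairpin (shRNA) and solvent alone, DMSO. In shSLC6A3 DMSO the hairpin was directed at SLC6A3, which encodes the dopamine transporter, again with DMSO. In shCTRL VXN the control hairpin was combined with an agent known only by the abbreviation VXN. All 9 libraries share the wild-type genotype label, and the labels give neither the number of hairpins or clones nor whether replicates came from separate cultures. The p-values below therefore reflect the spread between these samples alone, which may be technical. The sets cross the labels: within the 6 libraries the set and the labelled hairpin cannot be told apart. Over all 9, each labelled hairpin has a library outside its set. The hairpins and agents above are those of the sample labels. The libraries whose rerun gives the p-values of the authors' deposited table, described below, do not follow these labels. SLC6A3 itself had 6, 2, 0 and 3 counts in the FOS-high set and 1 and 0 in the pair, too few to check the hairpin.

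Library totals ran from 30.25 to 53.47 M (1 M is 1000000 counts) in the FOS-high set, with shCTRL VXN replicate 1 the lowest, and were 60.22 and 52.98 M in the pair. Mitochondrial genes took 5.26% to 6.96% of the counts in the FOS-high set, again with shCTRL VXN replicate 1 at the upper end, and 5.35% and 5.45% in the pair. Across the 14574 genes the correlation of log2(CPM + 1) was 0.997 to 0.999 within the FOS-high set, 0.999 within the pair and 0.984 to 0.987 between them, over genes that share their library and depth and are not independent. Epithelial markers were at 4928 to 5108 summed CPM in the FOS-high set and 5330 to 5374 in the pair, with 13 of 14 at 1 CPM or more. Leukocyte and endothelial markers summed to 1.95 to 2.49 against 1.04 to 1.15 CPM, with 0 of 11 at 1 CPM and CD3E and MS4A1 at 0. Fibroblast and mesenchymal markers summed to 43.0 to 46.1 against 27.9 to 29.9 CPM, with 4 of 14 at 1 CPM and LUM at 0, and their part in the results below was not tested.

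Immediate early genes are switched on within minutes of a stimulus such as serum, growth factors or stress, without new protein synthesis. Signals through ERK and other kinases reach factors already bound at their promoters, chiefly serum response factor with its partners at CArG boxes and CREB-type factors at sites with the core TGACGT. Their products include the AP-1 subunits FOS and JUN and the zinc finger factors EGR1 to EGR3, and the messages are short-lived. Amino acid supply is under a different control, in which the factor ATF4 raises genes of serine and asparagine synthesis, amino acid uptake and transfer RNA charging.

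Most immediate early and hypoxia genes were higher in the FOS-high set than in the pair, and most genes of amino acid synthesis, uptake and charging were lower. FOS, which was used to choose the libraries, and FOSB differed by 109-fold and 81.8-fold, and the amino acid genes by 2.96-fold at most. In bulk RNA a difference in the share of responding cells and a difference in RNA per cell cannot be told apart. Because the 6 libraries were chosen by expression, every difference between the sets is given as a description without a p-value. All 4 FOS-high libraries lay above both of the pair for 4145 genes (28.4% of those compared) and below both for 6113 (41.9%). With the further condition that the means differ at least 2-fold, 426 genes were higher in the FOS-high set (2.92%) and 69 lower (0.473%). The median log2 ratio over all 14574 genes was -0.06. Of genes whose sets did not overlap, 40.4% were higher in the FOS-high set with TMM scaling and 53.2% with plain library totals, so the balance of small differences depends on the scaling, while 86.1% and 91.4% of the 2-fold differences were higher. Among 2-fold differences, higher levels in the FOS-high set thus outnumbered lower ones under both scalings. The floor is a mean over 6 libraries, 4 of them FOS-high. Genes high in that set therefore pass it more easily than genes high in the pair, which favours higher genes in this count. With TMM scaling the share was 76% at a floor of 5 CPM and 73.8% with no floor.

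FOS (ENSG00000170345.10, chr14:75278774-75282230, plus strand, GRCh38) encodes the AP-1 subunit that pairs with JUN proteins. Its level was 537, 511, 328 and 506 CPM in shCTRL DMSO replicates 1 and 2 and shCTRL VXN replicates 1 and 2, and 4.49 and 4.12 CPM in the pair. The sets lay far apart, with shCTRL VXN replicate 1 the lowest of the 4, and the 3 libraries in neither set sat beside the pair at 5.70 to 7.28 CPM. The mean of the FOS-high set was 471 ± 95.9 CPM (SD, n = 4), 109-fold that of the pair. FOSB, a paralog of FOS, was at 286, 279, 172 and 265 CPM against 2.82 and 3.30 CPM, an 81.8-fold ratio of means. JUN was at 149, 144, 96.8 and 137 CPM against 25.4 and 26.3 CPM, and JUNB at 352, 344, 288 and 330 CPM against 79.8 and 77.5 CPM. ATF3, a related factor induced by stress, was at 52.4 to 81.2 CPM against 22.0 and 20.6 CPM. Unlike FOS, ATF3 was not low outside the FOS-high set in general, since the 3 libraries in neither set held 94.6 to 96.9 CPM. Of the 9 AP-1 factors, 7 were higher in all 4 FOS-high libraries, 5 of them at least 2-fold. The shares over all genes compared were 28.4% and 2.92%. Both counts include FOS, which was used to choose the libraries. FOSL1 was lower (log2 ratio -0.20), and the median log2 ratio of the list was 1.76.

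The promoters of FOS, FOSB and DUSP1 are shown because these genes were among the most separated and each window holds the CREB-type core. The sequences are the 200 bases before the start in RefSeq (GRCh38.p14), written 5′ to 3′ on the gene's strand, with capitals marking TGACGT on either strand. They cover chr14:75278628-75278827 for FOS, chr19:45467796-45467995 for FOSB, and chr5:172771196-172771395 on the minus strand for DUSP1.
FOS: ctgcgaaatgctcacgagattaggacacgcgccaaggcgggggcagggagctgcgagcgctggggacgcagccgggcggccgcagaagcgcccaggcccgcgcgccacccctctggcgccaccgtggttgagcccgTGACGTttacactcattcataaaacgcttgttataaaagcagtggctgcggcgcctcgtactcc
FOSB: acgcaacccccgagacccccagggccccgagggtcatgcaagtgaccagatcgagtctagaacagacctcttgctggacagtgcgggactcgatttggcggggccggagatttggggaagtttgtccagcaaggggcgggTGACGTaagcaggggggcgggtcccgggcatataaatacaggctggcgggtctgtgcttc
DUSP1: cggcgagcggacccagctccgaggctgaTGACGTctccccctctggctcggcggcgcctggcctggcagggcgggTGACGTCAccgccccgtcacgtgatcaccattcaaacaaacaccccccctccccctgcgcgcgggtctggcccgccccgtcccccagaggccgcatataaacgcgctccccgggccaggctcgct
The match began 64 bases before the start in FOS and 60 in FOSB. DUSP1 held matches beginning 172, 125 and 123 bases before its start, the last pair being the same 8-base palindrome read on both strands. Of the 29 genes of the AP-1 and immediate early lists, 21 had a window, and 8 of these held TGACGT (38.1%), against 7.73% of 27305 genes with at least 1 window. The core was not particular to these lists. It was in 5 of 16 windows of the hypoxia and glycolysis list (31.25%) and 4 of 42 of the amino acid lists (9.52%), both described below. A match is a string of letters in the window and no measure of binding.

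EGR1 (ENSG00000120738.8, chr5:138465490-138469315, plus strand) encodes a zinc finger factor and was used to choose the libraries. It was at 940, 904, 607 and 881 CPM in the FOS-high set and at 65.5 and 65.2 CPM in the pair, with means of 833 ± 153 CPM (SD, n = 4) and 12.7-fold apart. EGR2 was at 23.0, 23.9, 11.9 and 23.7 CPM against 0.942 and 0.680 CPM, and EGR3 at 19.8, 18.8, 11.7 and 18.6 CPM against 2.33 and 2.78 CPM. For all 3 the sets did not overlap and shCTRL VXN replicate 1 was the lowest of the 4. NR4A1, an orphan nuclear receptor, was at 222, 203, 152 and 222 CPM against 14.4 and 16.3 CPM. CCN1, a secreted matricellular protein that is also a target of YAP, was at 222, 227, 166 and 214 CPM against 14.5 and 14.7 CPM. These were ratios of 13.0 and 14.2 between the set means. NR4A2 (5.36-fold), ZFP36, which promotes decay of AU-rich messages (4.84-fold), IER2 (2.89-fold) and KLF4 (2.40-fold) had smaller ratios in the same direction.

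All 20 genes of the EGR, NR4A and IER list were higher in the FOS-high set, 13 of them at least 2-fold. The shares over all genes compared were 28.4% and 2.92%. Both counts include EGR1, which was used to choose the libraries. The log2 ratios ran from 0.07 for IER5 to 4.67 for EGR2, with a median of 1.23. In 17 of the 20, and in 7 of the 9 AP-1 factors, shCTRL VXN replicate 1 was the lowest of the 4. Without that library all 20 were still higher, 13 at least 2-fold, and the medians were 1.26 and 1.89. The EGR1 and EGR2 promoters are shown for their CArG boxes, the serum response factor site, marked in capitals, in the 200 bases before the RefSeq start. They cover chr5:138465279-138465478 for EGR1 and chr10:62816367-62816566 on the minus strand for EGR2, the latter for 1 of its 3 starts.
EGR1: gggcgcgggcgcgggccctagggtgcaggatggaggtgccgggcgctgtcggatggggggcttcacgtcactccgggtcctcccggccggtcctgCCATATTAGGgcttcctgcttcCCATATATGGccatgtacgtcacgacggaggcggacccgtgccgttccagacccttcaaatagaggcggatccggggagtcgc
EGR2: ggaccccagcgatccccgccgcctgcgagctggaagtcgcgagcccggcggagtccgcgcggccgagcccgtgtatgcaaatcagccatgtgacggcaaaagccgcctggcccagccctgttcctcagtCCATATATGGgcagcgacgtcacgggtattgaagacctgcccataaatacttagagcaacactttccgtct
The boxes began 105 and 83 bases before the start of EGR1 and 71 before that of EGR2. CArG boxes on either strand were present in 3 of the 21 windows of the AP-1 and immediate early lists (EGR1, EGR2 and SRF) and in 1.22% of the 27305 genes.

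**Figure D1:**
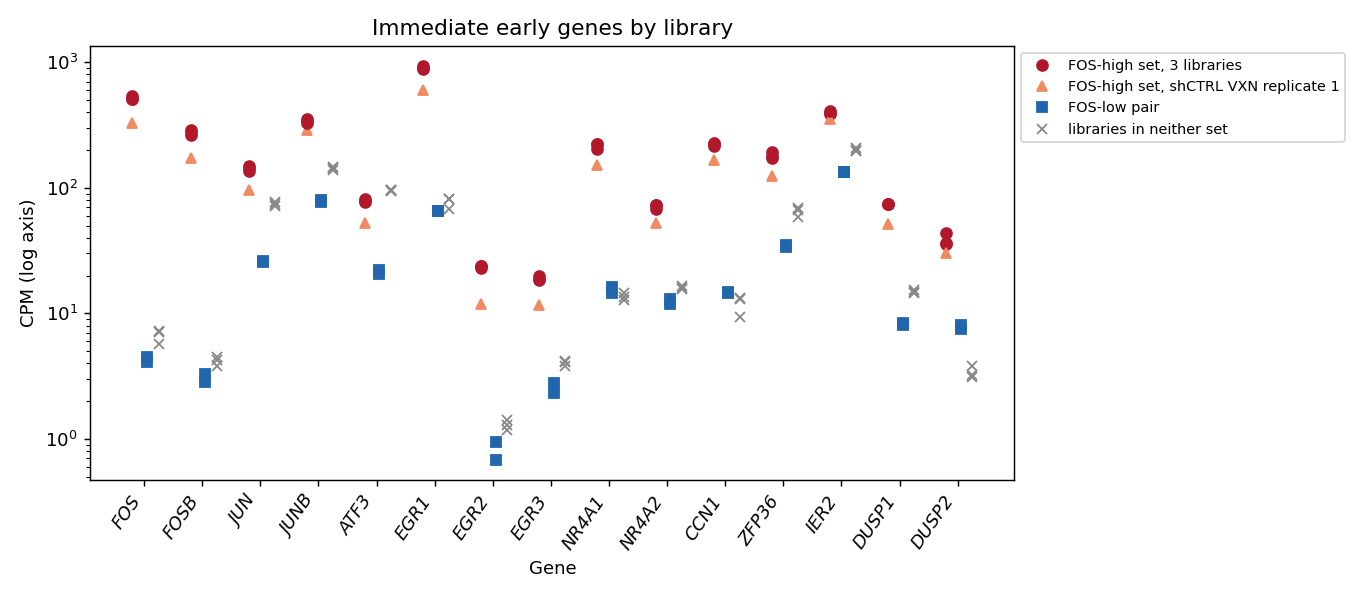
Level of 15 immediate early genes in each of the 9 libraries, in CPM on a log axis. Points are single libraries: the FOS-high set (circles, with shCTRL VXN replicate 1 as a triangle), the FOS-low pair (squares) and the libraries in neither set (crosses). For FOS the FOS-high set lies at 328 to 537 CPM and the other 5 libraries at 4.12 to 7.28 CPM.

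Negative regulators of the ERK cascade were mixed. DUSP1, a MAP kinase phosphatase that is itself an immediate early gene, was at 74.9, 74.1, 51.4 and 75.0 CPM in the FOS-high set and 8.13 and 8.45 CPM in the pair, 8.30-fold apart. DUSP2 was at 35.9, 36.3, 30.3 and 44.0 CPM against 8.10 and 7.46 CPM. DUSP6, the cytoplasmic ERK phosphatase whose message follows sustained ERK activity, overlapped between the sets at 223, 222, 167 and 212 CPM against 183 and 181 CPM. Among the ETV factors, ETV4 overlapped (59.0 to 65.0 against 63.6 and 64.2 CPM) and ETV5 was lower, at 85.9 to 95.8 against 158 and 155 CPM. Of the 16 genes in this list, 10 were higher, 4 lower and 2 overlapped, with a median log2 ratio of 0.20. Over all genes compared, 28.4% were higher and 41.9% lower. The fast DUSP genes thus carried the 2-fold differences, and DUSP6 and the ETV factors did not. In the EGF receptor family and its ligands, 1 of 8 expressed genes was higher and 3 were lower. The lower share was near that of all genes. EGFR was at 132 to 144 against 161 and 160 CPM and EREG at 631 to 711 against 813 and 816 CPM. MYC was at 494, 456, 435 and 448 CPM against 384 and 382 CPM, a 1.20-fold ratio, and the MXD family genes MXD1 (1.77-fold) and MXD4 (1.61-fold), whose products oppose MYC, were higher too.

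Genes of the hypoxia and glycolysis list were also higher in the FOS-high set. These genes are controlled by HIF factors, which are stabilised when oxygen is short and bind the core ACGTG. ANKRD37 was at 6.41, 6.85, 14.7 and 7.38 CPM against 1.15 and 1.26 CPM, and ALDOC, a glycolytic aldolase, at 91.4, 84.0, 112 and 87.4 CPM against 16.4 and 16.6 CPM. CA9, a membrane carbonic anhydrase and a standard hypoxia marker, had 92, 61, 83 and 86 counts in the FOS-high set and 2 and 1 in the pair. Scaled by library size this is a ratio of 64.3, with an exact 95% interval of 21.8 to 313 that covers counting error only. The sets did not overlap for any of these 3 genes, and here shCTRL VXN replicate 1 was the highest of the 4 in CPM. ADM (2.60-fold), the prolyl hydroxylases EGLN3 (2.34-fold) and P4HA1 (2.26-fold), the pyruvate dehydrogenase kinase PDK1 (2.16-fold) and NDRG1 (2.13-fold) were higher as well.

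PDK1 was at 27.7, 28.3, 28.3 and 27.1 CPM against 12.9 in each of the pair, and BNIP3 at 53.6 to 55.8 against 27.6 and 27.5 CPM, with little spread inside either set. VEGFA, an angiogenic factor and HIF target, overlapped at 73.9 to 83.9 against 77.0 and 78.2 CPM. The glycolytic genes LDHA (1.21-fold), PGK1 (1.29-fold) and ALDOA (1.38-fold) differed by less. In all, 16 of 18 genes were higher in the FOS-high set and 8 at least 2-fold, against 28.4% and 2.92% of all genes compared. Of the 18, 0 were lower, and the median log2 ratio was 0.96. shCTRL VXN replicate 1 was the highest of the 4 for 14 of the 18. Without it, 16 were still higher, 6 at least 2-fold, with a median of 0.89. ANGPTL4, which is outside the list and is also a HIF target, was at 20.3, 19.6, 40.8 and 21.2 CPM against 3.78 and 4.29 CPM.

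The ANKRD37 and CA9 promoters are shown for ACGTG, marked in capitals on either strand, in the 200 bases before the RefSeq start at chr4:185396641-185396840 and chr9:35673728-35673927.
ANKRD37: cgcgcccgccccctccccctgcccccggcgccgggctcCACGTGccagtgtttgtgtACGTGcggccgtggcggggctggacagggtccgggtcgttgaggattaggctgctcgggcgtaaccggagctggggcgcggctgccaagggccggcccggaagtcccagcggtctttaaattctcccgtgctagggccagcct
CA9: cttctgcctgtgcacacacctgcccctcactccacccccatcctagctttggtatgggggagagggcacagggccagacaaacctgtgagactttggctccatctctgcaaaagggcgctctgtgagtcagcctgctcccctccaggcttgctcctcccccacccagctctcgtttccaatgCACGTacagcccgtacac
Matches began 162, 161 and 143 bases before the start in ANKRD37, the first pair being 1 palindrome on both strands, and 18 bases before it in CA9. Of 16 list genes with a window, 11 held ACGTG (68.8%), against 18.6% of the 27305 genes. The core ACGTG overlaps TGACGT where the letters run TGACGTG, so the shares of the 2 motifs are not independent.

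**Figure D2:**
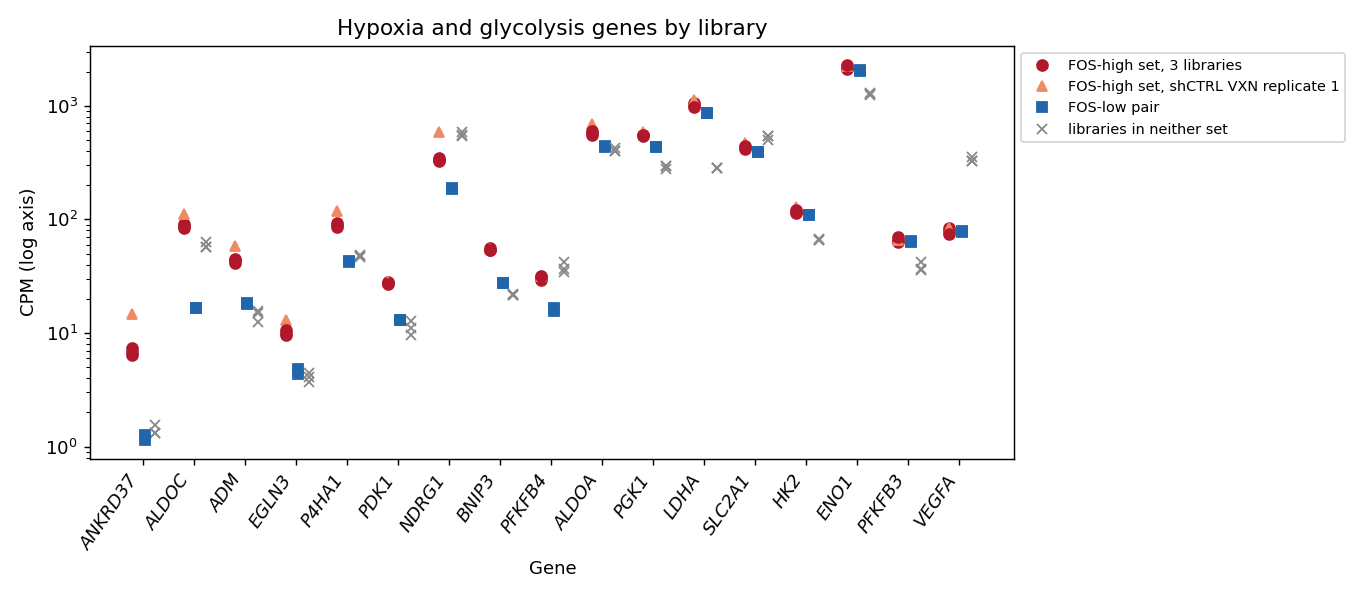
Level of 17 hypoxia and glycolysis genes in each of the 9 libraries, in CPM on a log axis. Symbols are as in the plot of immediate early genes. ANKRD37 lies at 6.41 to 14.7 CPM in the FOS-high set against 1.15 and 1.26 CPM in the pair, whereas VEGFA overlaps. CA9 is left out because some libraries had 0 counts.

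Most genes of amino acid synthesis, uptake and charging were lower in the FOS-high set. PSAT1 (ENSG00000135069.14, chr9:78297143-78330093, plus strand), a transaminase of serine synthesis, was at 207, 214, 195 and 200 CPM against 607 and 604 CPM. The 4 libraries kept within 195 to 214 CPM and the pair stood 2.96-fold higher, with 688 to 707 CPM in the libraries of neither set. PHGDH, which catalyses the entry step of serine synthesis, was at 138, 142, 135 and 150 CPM against 301 and 303 CPM. ASNS, asparagine synthetase, was at 95.8, 96.8, 92.1 and 102 CPM against 257 and 256 CPM. GPT2, a mitochondrial alanine transaminase, was at 55.5 to 59.2 against 109 and 106 CPM, and MTHFD2, of the mitochondrial folate cycle, at 414 to 428 against 696 and 693 CPM. Of 15 expressed genes of serine, one-carbon and asparagine synthesis, 13 were lower, 3 at least 2-fold, and CTH and ALDH1L2 were higher (1.28-fold and 1.29-fold), with a median log2 ratio of -0.49. Without shCTRL VXN replicate 1 the counts were again 13, 3 and 2, and the median was -0.49.

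SLC7A5 (ENSG00000103257.9, chr16:87830023-87869488, minus strand), the transporter subunit of the leucine exchanger LAT1, was at 827, 797, 764 and 900 CPM against 1767 and 1769 CPM. Its heavy chain SLC3A2 was at 250, 255, 255 and 280 CPM against 501 and 492 CPM, so both subunits were lower in the FOS-high set. SLC7A11, the cystine carrier, was at 77.2, 79.2, 63.0 and 75.3 CPM against 211 and 208 CPM. SLC6A9, a glycine transporter, was at 5.87 to 6.51 against 16.7 and 16.3 CPM, and SLC1A4, a neutral amino acid carrier, at 7.93 to 10.2 against 21.2 and 20.6 CPM. The differences were not uniform across the family: SLC38A2 (1.27-fold) and SLC7A8 (1.74-fold) were higher in the FOS-high set. Of 17 transporters, 11 were lower, 4 at least 2-fold, 3 were higher and 3 overlapped, with a median log2 ratio of -0.51.

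Cytosolic aminoacyl-tRNA synthetases, which load amino acids onto transfer RNA, were lower for 17 of 20 members with a median of -0.41. WARS1 was at 101, 96.8, 95.5 and 97.3 CPM against 226 in each of the pair, SARS1 at 122 to 131 against 234 and 233 CPM, and GARS1 at 256 to 276 against 476 and 483 CPM. ATF4 itself differed by less, at 452, 455, 426 and 446 CPM against 582 and 595 CPM, a 1.32-fold higher level in the pair. Its target TRIB3, a pseudokinase, was at 74.1, 73.9, 73.4 and 76.8 CPM against 169 and 171 CPM. DDIT3, a stress factor of the same response, was at 21.0 to 23.0 against 25.8 and 26.5 CPM. Of 17 expressed genes of the integrated stress response, 13 were lower, with a median of -0.23. PPP1R15A, a phosphatase subunit that reverses eIF2α phosphorylation and also responds early to stimuli, went the other way at 132, 121, 89.8 and 107 CPM against 41.3 and 43.4 CPM. For comparison, 41.9% of all genes compared were lower in the FOS-high set and 0.473% were lower at least 2-fold, and the 2-fold members were 3 of 15, 4 of 17, 1 of 20 and 1 of 17 in these lists.

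The ASNS promoter is shown for a match to TGATGNAA, the form of site that ATF4 binds with C/EBP partners, in capitals, in the 200 bases before 1 of its 2 RefSeq starts at chr7:97872409-97872608, minus strand.
ASNS: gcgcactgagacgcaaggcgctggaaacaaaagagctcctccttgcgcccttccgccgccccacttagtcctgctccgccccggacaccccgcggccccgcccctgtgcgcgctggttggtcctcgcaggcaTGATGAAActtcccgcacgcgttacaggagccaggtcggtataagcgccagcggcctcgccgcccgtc
The match began 68 bases before the start. Of 53 genes in the 3 amino acid lists, 42 had a window and 6 held TGATGNAA on either strand (14.3%): AARS1, ASNS, GARS1, IARS1, MTHFD1L and SLC1A5. Among the 27305 genes 3.20% did.

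**Figure D3:**
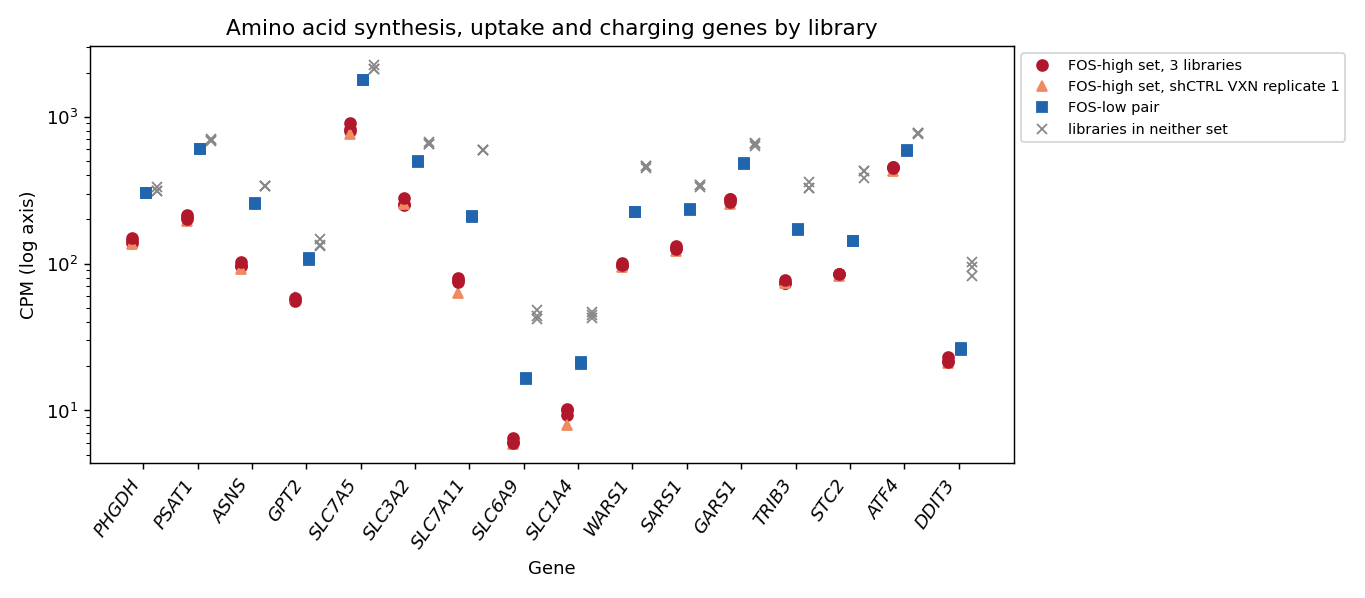
Level of 16 genes of amino acid synthesis, uptake, charging and the integrated stress response in each of the 9 libraries, in CPM on a log axis. Symbols are as in the plot of immediate early genes. PSAT1 lies at 195 to 214 CPM in the FOS-high set and at 604 and 607 CPM in the pair, and DDIT3 differs least between these sets.

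MKI67, the proliferation antigen used to choose the pair, was at 613, 583, 519 and 586 CPM in the FOS-high set and 582 and 585 CPM in the pair. The sets overlapped for this gene, which the choice used, and the libraries in neither set were at 61.1 to 73.8 CPM. Other growth genes were lower in the FOS-high set by small ratios, where 41.9% of all genes compared were lower and 28.4% higher. Of 21 mitosis genes 15 were lower and 0 higher (median log2 ratio -0.15), with PLK1, a mitotic kinase, at 128 to 150 against 181 and 184 CPM. Of 22 DNA replication genes 21 were lower (median -0.24), with CDC6, which loads the replicative helicase, at 106 to 114 against 160 and 157 CPM. Of 21 nucleolar ribosome assembly genes 19 were lower (median -0.33), with RRS1 at 46.2 to 49.7 against 74.2 and 72.7 CPM. No gene of these 3 lists was 2-fold apart, and with plain library totals 12, 19 and 18 were lower and 0, 1 and 1 higher. Chaperone genes showed ratios of the same order. HSPA8, the constitutive cytosolic HSP70, was at 1494, 1490, 1392 and 1396 CPM against 2627 and 2647 CPM, and HYOU1, an endoplasmic reticulum chaperone, at 210 to 230 against 350 and 357 CPM. Heat shock chaperones were lower for 13 of 14 and endoplasmic reticulum chaperones for 17 of 18 (medians -0.40 and -0.34), against 41.9% of all genes. HSPA1A is left out of these examples because reads may be shared with the near-identical HSPA1B. NRF2 targets, which defend against oxidants, were lower for 13 of 16 (median -0.43), among them GCLM at 37.8 to 43.4 against 80.9 and 79.9 CPM and TXNRD1 at 562 to 623 against 920 and 916 CPM. SLC7A11 is counted both there and among the transporters.

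The 12 genes with the lowest ratios among those at 5 CPM or more also held genes outside the lists. CEMIP, a hyaluronan-binding protein, was at 16.3, 16.8, 19.0 and 18.1 CPM against 57.5 and 60.2 CPM. ANO1, a calcium-activated chloride channel, was at 50.7 to 56.3 against 143 and 146 CPM, and CSTA, a cysteine protease inhibitor, at 4.15 to 4.99 against 16.4 and 14.6 CPM. LOXL4, NAV3 and SPTSSB were 2.50-fold, 2.56-fold and 3.23-fold higher in the pair. UPP1, uridine phosphorylase, and NRP1, a semaphorin and VEGF co-receptor, were singled out after their values were seen because a rule on symbols ending in P and digits dropped them. UPP1 was at 9.60 to 10.6 CPM against 47.0 and 44.6 CPM, 4.56-fold higher in the pair, and NRP1 at 4.03 to 4.85 against 17.0 and 17.1 CPM.

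Of 630 repeat subfamilies at 1 CPM or more, 368 were higher in the FOS-high set (58.4%) and 23 lower (3.65%), where all genes had 28.4% and 41.9%. The endogenous retrovirus HERVH-int was among the lower ones, at 2147, 2074, 1629 and 1879 CPM against 3778 and 3814 CPM. Kanga1, a DNA transposon, was at 1.79 to 1.87 against 0.822 and 0.622 CPM. The counts of subfamilies weigh rare and abundant ones alike. Summed over all repeat subfamilies the sets overlapped, at 16934 to 17539 CPM against 17361 and 17306 CPM. The LTR class, which includes HERVH-int, summed to a lower level in the FOS-high set, 3745 to 4342 against 5768 and 5826 CPM. The LINE, SINE and DNA classes summed to a higher one. HERVH-int alone is a large part of the LTR sum, which therefore does not describe the class as a whole. By subfamily, 165 of 273 LTR members at 1 CPM or more were higher in the FOS-high set and 14 lower. Repeat reads map to many copies, and how they were assigned is not given in the sources used here.

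**Figure D4:**
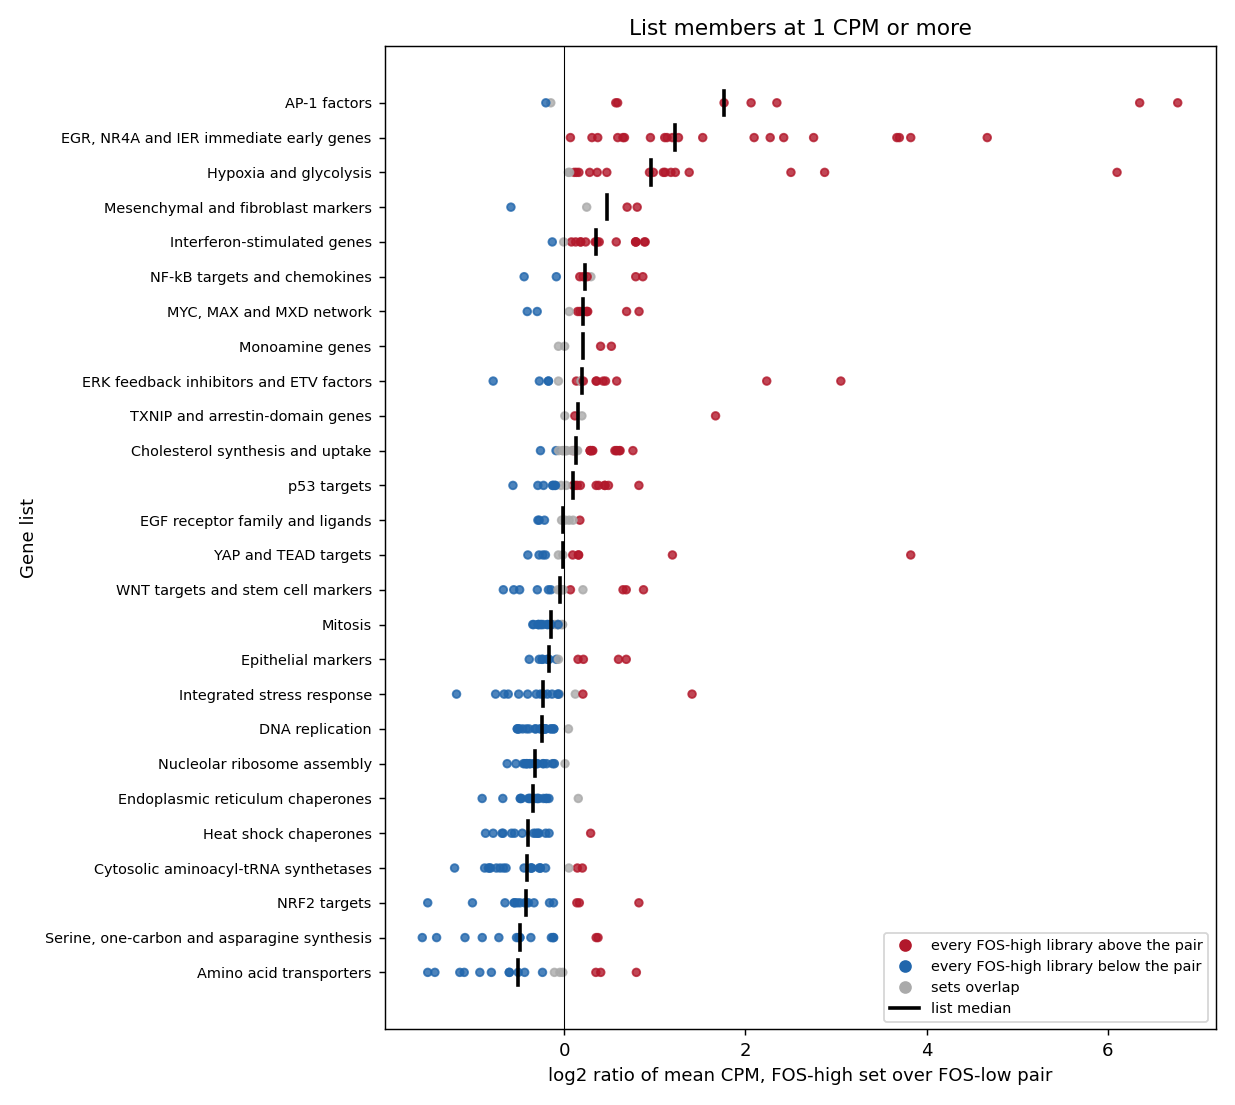
Log2 ratio of mean CPM, FOS-high set over FOS-low pair, for members at 1 CPM or more of the gene lists with at least 4 such members. Each point is a gene, coloured by whether all 4 FOS-high libraries lay above or below both of the pair, and bars are list medians. The AP-1, immediate early and hypoxia lists have medians of 1.76, 1.23 and 0.96, and the amino acid transporters the lowest, -0.51.

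The treatment label was not used to form the FOS-high set, and it was tested inside it. The choice by expression left out replicate 3 of both shCTRL groups. That narrows the spread within each group, so the p-values inside the set may be too small. Over all 9 libraries the same contrast called 2 of 20402 genes and repeats. The labels are those of the sample records, and the libraries whose rerun gives the p-values of the authors' deposited table, described below, do not follow them, so this is a test of the labels as given. shCTRL VXN replicates 1 and 2 were compared with shCTRL DMSO replicates 1 and 2 by edgeR's quasi-likelihood test with Benjamini-Hochberg adjustment. Of 20036 genes and repeats, 59 passed an adjusted p of 0.05 (0.294%), 41 higher and 18 lower in VXN, and 16 of the 59 were protein-coding. The leading ones were mostly noncoding: the host gene SNHG25 (5.76, 5.51, 13.1 and 11.6 CPM, log2 fold change 1.12, adjusted p = 3.74e-05 by edgeR) and MIR6797 (2.55, 1.95, 0.295 and 0.289 CPM, log2 fold change -2.95, adjusted p = 6.35e-05 by edgeR). Both separated the labels without overlap. CEP290, a ciliary protein, was the leading coding gene among the lower ones (28.2, 29.1, 22.3 and 20.7 CPM, adjusted p = 0.00966 by edgeR).

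Of 399 tested list genes 1 passed inside the set, PPP1R15A, lower in VXN (log2 fold change -0.36, adjusted p = 0.0457 by edgeR). Its call was lost without shCTRL DMSO replicate 1 (log2 fold change -0.30, adjusted p = 0.214 by edgeR). FOS and EGR1 were used to choose these libraries and are given no test here. PSAT1 had -0.09 (adjusted p = 0.544) and SLC7A5 0.04 (adjusted p = 0.894) by edgeR. Both are also markers of the expression state that these libraries share, so a small difference inside the set says little about VXN. The calls themselves numbered 557 higher and 769 lower without shCTRL VXN replicate 1, and 432 and 311 without shCTRL VXN replicate 2, where a lone library is assumed to vary like the others.

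By the labels alone over all 9 libraries, few or no differences passed. Each labelled group mixes libraries inside and outside the sets, so these tests do not bear on the differences between the sets. For shSLC6A3 DMSO against shCTRL DMSO, edgeR called 0 of 20402 genes and repeats (0%), with 930 at an unadjusted p under 0.05, and DESeq2 also called 0. Within shCTRL DMSO, FOS was at 537, 511 and 7.17 CPM in replicates 1 to 3. For shCTRL VXN against shCTRL DMSO, 2 were called (0.0098%), MIR6797 and MIR6856, both lower, with adjusted p = 0.0441 by edgeR, and 384 had an unadjusted p under 0.05. Neither is a list gene, and both calls were lost when any single library of those groups was left out. The log2 fold changes were then -2.74 to -2.97 for MIR6797, against -2.82, and -3.57 to -4.23 for MIR6856, against -3.89. The lowest adjusted p of any list gene was 0.978 and 1 in the 2 comparisons.

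The authors' deposited table of shDAT D against shCTRL D holds several of the most separated genes without a p-value. An assignment of libraries to its groups that was known from an earlier analysis of these data was rerun with DESeq2, with shCTRL DMSO replicates 1 and 2 and shCTRL VXN replicate 1 against shCTRL VXN replicate 2 and the FOS-low pair. A p-value is given for 38907 rows of the authors' deposited table, and the rerun gave 38906 of them to within 1e-06. That contrast thus sets 3 FOS-high libraries against a group of 1 FOS-high library and the pair. Among genes and repeats with counts, 36 have no p-value in the authors' deposited table, and the same 36 have none in the rerun and gain one when DESeq2's outlier step is switched off. Among the 426 genes at least 2-fold higher in the FOS-high set, 9 are of this kind: FOS, FOSB, EGR2, CCN1, EGR1, DUSP1, DEPP1, MIR23AHG and EGR3. Their shrunken log2 fold changes in the authors' deposited table run from 0.006 to 0.019.

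Of the 69 genes at least 2-fold lower in the FOS-high set, 38 have an adjusted p in the authors' deposited table and 24 of them pass 0.05, against 5 of 70 for the 426 higher genes. Over all compared genes with an adjusted p in the authors' deposited table, 680 of 10211 pass (6.66%). The authors' deposited table gives PSAT1 a log2 fold change of -0.97 (adjusted p = 0.0295), SLC7A5 -0.82 (adjusted p = 0.00609) and ASNS -0.85 (adjusted p = 0.0349), whereas the log2 ratios between the sets were -1.57, -1.10 and -1.41. The median over the 69 is -0.51 in the authors' deposited table and -1.20 between the sets, and over the 426 it is 0.05 and 1.28. All log2 fold changes of the authors' deposited table are shrunken, and the ratios between the sets are not. The deposited contrast also holds a FOS-high library on the side of the pair. The sizes of the 2 kinds of value therefore cannot be compared directly. These contrasts share libraries, so the values are set side by side and are not independent.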

How the data were processed

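RNA from 9 HCT116 libraries was prepared with a TruSeq RNA v2 kit, which does not mark strand, so antisense and overlapping genes cannot be told apart. The submitters' processing notes name fastp 0.20.1, FastQC 0.11.9, STAR, DESeq2 1.34.0 and GRCh38. Neither the counting program nor its annotation is given in the sources used here. Raw counts were deposited by the authors in a table of 60651 gene rows and 1181 repeat subfamilies. The log2 fold changes and p-values of shDAT D against shCTRL D were deposited by the authors.

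CPM were computed here from counts with TMM factors over all 9 libraries. Sets were compared without a test, by non-overlap and a 2-fold ratio of mean CPM, at a mean of 1 CPM or more. The genes named were those used to choose the libraries, the 12 highest and 12 lowest ratios at 5 CPM or more (without clone, antisense, locus or pseudogene-like symbols), up to 4 members of each of 27 lists, more where a sentence describes a pathway, up to 5 genes per direction in the test inside the set, and up to 3 repeats per direction. Labelled groups were compared with edgeR 4.0.16 (R 4.3.3) after a low-count filter, at an adjusted p of 0.05, with DESeq2 1.42.0 as the alternative. The edgeR script was tested on simulated data. Gene positions are from GENCODE v29 and promoters from RefSeq. The members, lists and promoters shown were chosen with earlier results of these data known. Shared replicate numbers were not used to pair libraries in the main tests. Over the 9 libraries, correlations of deviations from the group means ran from -0.82 to 0.95 for same-number pairs. For different-number pairs they ran from -0.93 to 0.91. Each group mixes libraries inside and outside the sets, so this check cannot show whether replicates shared a culture or day.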

Additional observations from a re-analysis of the deposited data

Results flagged for a closer look

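Within the FOS-high set, 14 of the named genes and repeats had 1 library far from the other 3, by Dixon's criterion, which chance meets in about 1 in 20 groups of this size. In 12 of the 14 that library was shCTRL VXN replicate 1, which also had the lowest library total, 30.25 M (1 M is 1000000 counts), and the highest mitochondrial share, 6.96%; the part of depth and of mitochondrial share in these values was not tested.

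Immediate early genes were among those where shCTRL VXN replicate 1 lay far below the others. It held 328.4 CPM of FOS where the other 3 held 506 to 537 CPM, 11.93 CPM of EGR2 (others 23.0 to 23.9 CPM) and 11.67 CPM of EGR3 (18.6 to 19.8 CPM). It also held 51.36 CPM of DUSP1 (others 74.1 to 75.0 CPM) and 6.686 CPM of CCN2, a matricellular YAP target (8.54 to 8.83 CPM). Each of these values remained above both libraries of the FOS-low pair. Its lowest places also included the mitotic cyclin CCNB1 at 204.9 CPM (others 221 to 223 CPM) and SPTSSB, a subunit of serine palmitoyltransferase, at 2.622 CPM (3.73 to 3.83 CPM).

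The same library was far above the others for the HIF targets ANKRD37, at 14.72 CPM (others 6.41 to 7.38 CPM), and ANGPTL4, at 40.84 CPM (19.6 to 21.2 CPM). It was also high for INSIG1, a regulator of cholesterol synthesis, at 155.9 CPM (104 to 110 CPM), for MXD1 at 18.29 CPM (10.9 to 11.3 CPM) and for the transporter ABCC2 at 154.7 CPM (144 to 145 CPM). In shCTRL VXN replicate 2 GADD45A, a p53 target, was low at 70.63 CPM (others 79.7 to 81.1 CPM) and the endogenous retroviral repeat LTR10C was high at 3.581 CPM (3.05 to 3.12 CPM).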

How the results depend on the processing

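Of 968 recomputed log2 ratios of the 121 named genes and repeats (other scalings, and each library left out), 903 moved by less than the spread within the FOS-high set, 65 moved by more (50 with plain library totals and 15 without 1 library of the pair) and 0 reversed. Genes at least 2-fold higher or lower numbered 2172 and 773 with no expression floor, 133 and 42 at 5 CPM, and 1176 and 375 at 1.5-fold, against 426 and 69. With no floor 6699 genes lay above the pair against 4145.

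Inside the FOS-high set, where 41 were higher and 18 lower in VXN, DESeq2 called 24 and 8, and edgeR without the low-count filter 195 and 170. Leaving out 1 library gave 55 to 557 higher and 25 to 769 lower. The replicate number as a block gave 100 and 80. Same-number libraries correlated at -0.11 there, and the crossed pairing, added after seeing the data, gave 436 and 478. With 2 libraries a group the crossed correlation is 0.11 by construction, so it cannot show which libraries share a culture. SLC7A5 changed sign without shCTRL VXN replicate 2 (log2 fold change -0.085) and passed without shCTRL VXN replicate 1 (0.15). CEP290 was not called without shCTRL DMSO replicate 2 (adjusted p = 0.0533 by edgeR), and MT-ND6, MT-TD, MT-TG and MT-TH were not called by DESeq2.

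For labelled shCTRL VXN against shCTRL DMSO, with 0 higher and 2 lower, DESeq2 called 10 and 10. The lower count was 0 without the filter, 0 with the replicate block and 0 to 0 with 1 library left out. For labelled shSLC6A3 against shCTRL, 0 were called in each of these settings. With 2 to 4 libraries a set, small differences could not be resolved, and CA9 and SLC6A3 rest on few counts in the pair.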

Other observations

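Mitochondrially encoded genes did not move as a block. This list was made after the values were seen. MT-ND5, a subunit of respiratory complex I, was at 2787, 2824, 3067 and 2409 CPM in the FOS-high set and 1281 and 1341 CPM in the pair, 2.11-fold apart. MT-CO2 (1.52-fold) and MT-CO1 (1.42-fold), of complex IV, were higher too. MT-ND2, also of complex I, was at 3284, 3261, 3267 and 2591 CPM against 6206 and 6335 CPM, so complex I subunits lay on both sides. MT-ND6, the protein gene on the other strand, was at 20.2, 22.0, 54.8 and 33.2 CPM against 105 and 111 CPM. Of 13 protein genes, 4 were higher and 3 lower, and of 15 mitochondrial transfer RNA genes at 1 CPM or more, 4 were higher and 7 lower. Over all genes compared, 28.4% were higher and 41.9% lower. The counts of higher members, and of lower transfer RNA genes, were near those shares. The 2-fold counts were not: 4 transfer RNA genes were higher and 5 lower at least 2-fold, and 1 and 2 of the 13 protein genes. Over all genes compared those shares were 2.92% and 0.473%. Inside the FOS-high set MT-ND6 was higher in VXN (log2 fold change 1.04, adjusted p = 0.00398 by edgeR), as were MT-TS1 (1.39, adjusted p = 0.00101 by edgeR), MT-TH (0.96, adjusted p = 0.0141 by edgeR), MT-TG (0.92, adjusted p = 0.0214 by edgeR) and MT-TD (0.90, adjusted p = 0.028 by edgeR). The kit does not mark strand, so reads of MT-ND6 and of the opposite strand cannot be told apart.

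Interferon-stimulated genes were higher in the FOS-high set for 15 of 17 expressed members by small ratios (median log2 ratio 0.36), where 28.4% of all genes compared were higher. ISG15, a ubiquitin-like modifier, was at 57.6, 60.6, 61.9 and 67.6 CPM against 34.8 and 32.2 CPM, and IFIT1 at 5.41 to 6.82 against 3.48 and 3.46 CPM. DKK1, a secreted WNT inhibitor, was at 405, 401, 372 and 390 CPM against 216 and 212 CPM. ARRDC4, an arrestin-domain gene, was at 28.8, 29.5, 31.7 and 29.9 CPM against 9.13 and 9.72 CPM. In the cholesterol list 12 of 24 were higher and 10 overlapped, and of 19 p53 targets 10 were higher and 7 lower, the latter near the 41.9% of all genes that were lower.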
